A study of Rattus norvegicus with 15 samples.

Results

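Iron uptake and iron sensing were followed through 9 genes, taken as the entries of the deposited expression table whose symbol was Tfrc, Slc11a2, Slc39a14, Steap3, Slc25a37, Ncoa4, Ftl1, Ireb2 or Aco1. All 9 were found, among 19328 distinct entries, and all 9 passed the filter on low values, among 11288 genes tested. RNA was sequenced from H9c2 cells, a rat line of embryonic heart origin with myoblast features, in 15 libraries and 5 groups of 3. The DSI+DOX cells received 50 µL of danshen injection (an extract of Salvia miltiorrhiza root), which the labels give as a dilution of 1 in 20 of the culture volume. The AXT+DOX cells received 5 µM astaxanthin, a carotenoid, and the DMT+DOX cells 10 µM diosmetin, a plant flavone. In these 3 groups 2 µM doxorubicin followed 4 h later. The DOX cells received 2 µM doxorubicin, an anthracycline drug known for its toxicity to the heart, and no addition. The con cells received PBS. Doxorubicin-treated cells were harvested 24 h after the drug. The genotype tag reads WT for con and repeats the treatment name elsewhere, and no genetic change is described for any group. All groups share 1 cell line, and no group received an addition without doxorubicin.

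Most cells take up iron bound to transferrin, which the transferrin receptor Tfrc carries into endosomes. There the ferrireductase Steap3 reduces the iron and the transporter Slc11a2 (DMT1) passes it to the cytosol, while Slc39a14 (ZIP14) imports iron that is not bound to transferrin. Slc25a37 (mitoferrin-1) moves iron into mitochondria, Ftl1 is the light chain of the iron store ferritin, and Ncoa4 delivers ferritin to the lysosome for iron release. The iron regulatory proteins Aco1 (IRP1) and Ireb2 (IRP2) bind iron-responsive elements when iron is scarce, which protects Tfrc mRNA and blocks translation of ferritin mRNA. In heart cells iron handling is studied in anthracycline injury because iron takes part in lipid peroxidation and ferroptosis.

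Tfrc and Steap3 were the uptake genes with called differences between DOX and con, in opposite directions, and their promoter sequences are shown for that reason. Each run is the 250 bases upstream of the annotated start, 5′ to 3′ on the gene's strand, from RefSeq on build GRCr8. Capitals mark matches to the motifs searched on both strands. These were GGGCGG (the GC box, in 30.5% of 33469 rat promoter windows of the same length), ACGTG (the hypoxia response core, 16.6%), TGACGT (the cAMP response half-site, 6.95%) and TGACNNNGC (the antioxidant response core, 10.1%).
Tfrc, chr11:81690319-81690568, minus strand: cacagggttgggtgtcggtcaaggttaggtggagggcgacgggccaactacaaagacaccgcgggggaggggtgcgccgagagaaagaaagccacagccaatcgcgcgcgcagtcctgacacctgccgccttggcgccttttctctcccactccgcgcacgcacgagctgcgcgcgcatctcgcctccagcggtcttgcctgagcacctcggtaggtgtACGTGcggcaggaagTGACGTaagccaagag
Steap3, chr13:33944357-33944606, minus strand: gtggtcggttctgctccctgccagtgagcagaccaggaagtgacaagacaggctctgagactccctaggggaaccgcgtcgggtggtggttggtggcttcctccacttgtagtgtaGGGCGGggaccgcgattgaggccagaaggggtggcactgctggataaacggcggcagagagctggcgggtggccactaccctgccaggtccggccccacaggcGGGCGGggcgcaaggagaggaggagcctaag
The Tfrc window held 1 ACGTG and 1 TGACGT and no GC box, and the Steap3 window held 2 GC boxes and none of the other motifs. Windows were given for 6 of the 9 genes (7 windows, since Slc11a2 has 2 start sites). The others held GC boxes: 2 for Ireb2, 3 for Aco1, 2 for Ncoa4 and 4 for the first start of Slc11a2, with none at its second. The Ncoa4 window also held 1 ACGTG and 1 TGACNNNGC. A match is a description of the letters and was not tested for binding.

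Levels are in FPKM, fragments scaled to gene length and library size. The summed FPKM was 433383 to 468608 in 14 libraries and 548227 in DSI+DOX replicate 3. Libraries of 1 group correlated at 0.991 or above on the log2 scale in 4 groups, and that library correlated with its own group at no more than 0.963 and as low as 0.953. Read depth is unknown. The 3 samples of a group are not said to come from separate cultures, so the p-values rest on a spread between samples that may be technical. Of 12 cardiomyocyte markers, 9 lay under 1 FPKM in every library, among them Myh6, Myh7, Tnni3, Actn2, Ryr2 and Pln, and Nppa was at 0 in 13 libraries and Nppb in 12. Tnnt2, Nkx2-5 and Gata4 were detected, as were Myod1, at 16.5 to 31.1 FPKM, and Col1a1, at 1414 to 3206 FPKM. Of the other measured skeletal myoblast and fibroblast markers, Myog, Des, Acta1, Myh3, Col1a2 and Thy1 were above 0 in every library. Pax7 and Dcn were each at 0 in 14 libraries, and Pdgfra was at most 0.047 FPKM. The cell type tag reads cardiomyocyte, while most of the defining cardiomyocyte genes were near 0. In bulk RNA, fewer cells of a type and less RNA per cell cannot be told apart.

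In con cells Ftl1 averaged 3398 ± 191 FPKM (SD, n = 3, as for all means here) and took 0.743% to 0.798% of the summed FPKM, rank 9 among all genes. It was followed by Steap3 at 28.9 ± 1.76, Ncoa4 at 28.6 ± 1.03, Aco1 at 17.6 ± 0.448, Tfrc at 17.1 ± 0.728, Ireb2 at 14.7 ± 0.697, Slc11a2 at 9.69 ± 0.502, Slc39a14 at 6.62 ± 0.148 and Slc25a37 at 2.22 ± 0.161 FPKM. Steap3 and Ncoa4 overlapped in range, as did Aco1 and Tfrc, and every other pair of neighbours in this order stood apart in all 3 con libraries. With doxorubicin the place of Tfrc in this order changed. It lay below Aco1 in all 12 libraries that received the drug and below Ireb2 in 11 of the 12, the exception being DSI+DOX replicate 3, where Tfrc had 4.14 and Ireb2 3.90 FPKM.

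**Figure D1:**
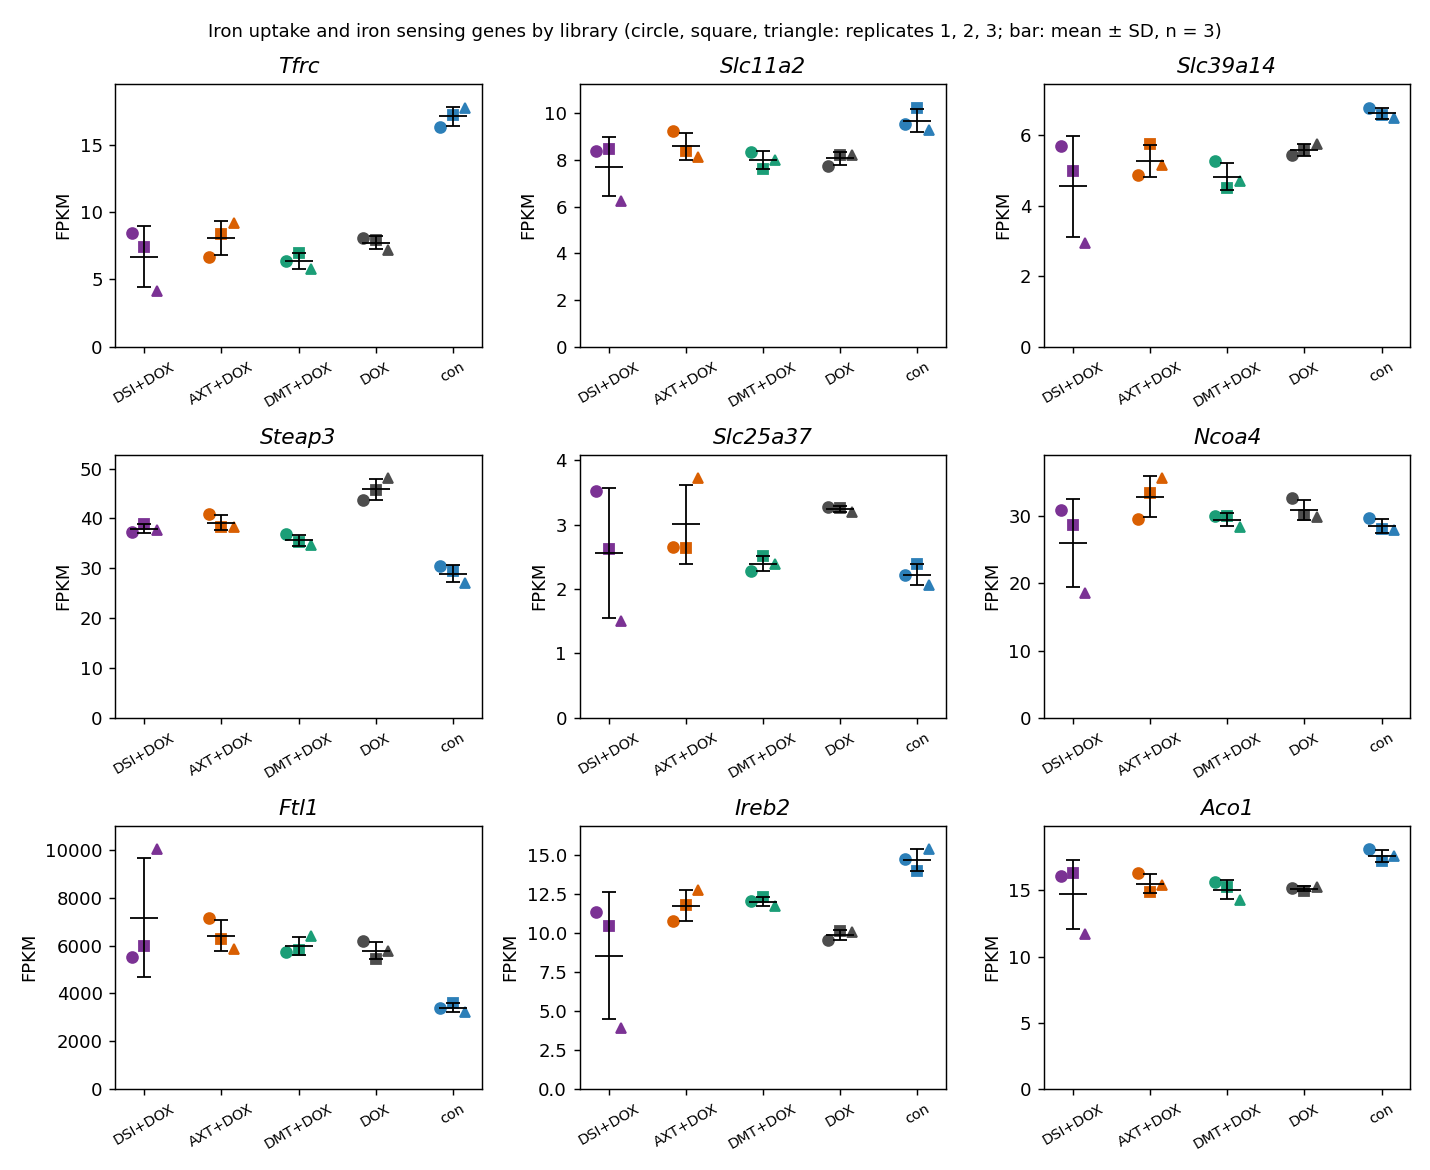
FPKM of the 9 genes in each library (y axis, linear from 0, scaled per gene), by group from DSI+DOX on the left to con on the right. Points are replicates 1 to 3 and bars are the mean ± SD (n = 3). Tfrc in con lies at 16.3 to 17.8 FPKM, above every treated library, and DSI+DOX replicate 3 is the lowest library for 7 of the 9 genes and the highest for Ftl1.

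Doxorubicin alone was compared with PBS to ask what the drug does to these genes. Tfrc fell, and Steap3 and Ftl1 rose. The other 6 genes did not pass the test across all 15 libraries, although DOX and con did not overlap for any of the 9 genes, as for 62.5% of all genes tested. The test was limma on log2(FPKM + 1) over all tested genes, two-sided, with Benjamini-Hochberg adjustment and calls at an adjusted p under 0.05, and differences are on that log2 scale, on which changes of low genes appear smaller than they are. By it 2 of the 9 genes were called higher and 1 lower, against 38.9% of all genes called (24.8% higher and 14.1% lower), so the members' share of calls was near the background. The median difference of the 9 was -0.21, against 0.05 over all genes tested.

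Among the uptake genes, Tfrc had 8.12, 7.92 and 7.20 FPKM in DOX, against 16.3, 17.2 and 17.8 FPKM in con. Every DOX library lay below every con library, and the mean FPKM was 0.453 times that of con (log2 difference -1.05 ± 0.18 SE, 95% interval -1.44 to -0.66, limma adjusted p = 0.000384). Steap3, the endosomal reductase, had 43.8, 45.6 and 48.0 FPKM in DOX and 30.4, 29.4 and 27.0 FPKM in con. All 3 DOX libraries were the higher ones, and the mean was 1.58 times that of con (0.65 ± 0.06, limma adjusted p = 2.28e-06). Slc11a2, which carries iron out of the endosome, had 7.76, 8.21 and 8.23 FPKM in DOX and 9.56, 10.2 and 9.27 FPKM in con. Its difference was -0.24 ± 0.10 with a limma adjusted p of 0.0755. Slc39a14, the importer of unbound iron, had 5.43, 5.58 and 5.76 FPKM in DOX and 6.79, 6.58 and 6.51 FPKM in con, a difference of -0.21 ± 0.15 (limma adjusted p = 0.293). Both lay lower in all 3 DOX libraries without passing the test.

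For the mitochondrial importer Slc25a37, values were 3.28, 3.25 and 3.19 FPKM in DOX and 2.22, 2.38 and 2.06 FPKM in con. The DOX libraries were higher (0.40 ± 0.17, limma adjusted p = 0.0755), at the lowest level of the 9 genes in both groups.

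Of the storage genes, ferritin light chain Ftl1 had 6174, 5436 and 5754 FPKM in DOX, against 3373, 3601 and 3220 FPKM in con. The mean was 1.70 times that of con (0.77 ± 0.18, 95% interval 0.38 to 1.16, limma adjusted p = 0.00407). Its share of the summed FPKM was 1.21% to 1.83% over the 12 treated libraries, where it ranked 1 to 5 among all genes. A second entry, LOC100360087, for which RefSeq lists Ftl1 as a synonym, stood at 3.26% to 3.81% of the Ftl1 level in every library and differed by 0.79 ± 0.20 between DOX and con (limma adjusted p = 0.00565). Reads of such near-identical copies may be shared, so the level of each is uncertain. Ncoa4, the ferritin receptor of the lysosomal pathway, had 32.7, 30.2 and 29.9 FPKM in DOX and 29.8, 28.1 and 27.9 FPKM in con. The lowest DOX library was just above the highest con library, and the difference was 0.11 ± 0.14 (limma adjusted p = 0.584).

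Of the sensors, Ireb2 had 9.54, 10.1 and 10.1 FPKM in DOX and 14.8, 13.997 and 15.4 FPKM in con. All 3 DOX libraries were lower, with a difference of -0.53 ± 0.25 (limma adjusted p = 0.109). Aco1, whose protein is also the cytosolic aconitase, had 15.2, 14.95 and 15.3 FPKM in DOX and 18.1, 17.2 and 17.6 FPKM in con, again lower in all 3 DOX libraries, with a difference of -0.21 ± 0.10 (limma adjusted p = 0.123).

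These tests share 1 estimate of the spread over all 15 libraries, DSI+DOX replicate 3 included. There Ireb2 lay 1.28 below the mean of the other DSI+DOX libraries on the log2 scale, Tfrc 0.80, Slc25a37 0.69, Slc39a14 0.68, Ncoa4 0.66, Aco1 0.44 and Slc11a2 0.38 below it, Steap3 differed by -0.01, and Ftl1 lay 0.81 above it. The median over all tested genes in that library was -0.13, with 10% of genes below -0.91 and 10% above 0.54, so Ireb2 and Ftl1 were outside this range and the other members inside it. With this library left out, the same differences between DOX and con were called for 8 of the 9 genes, 3 higher and 5 lower, against 57.1% of all genes. The limma adjusted p was then 7.86e-06 for Ireb2, 0.00351 for Aco1, 0.00567 for Slc11a2, 0.0257 for Slc39a14, 0.0051 for Slc25a37 and 0.167 for Ncoa4. Tfrc, Steap3 and Ftl1 were called under each of the 24 alternatives tried.

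**Figure D2:**
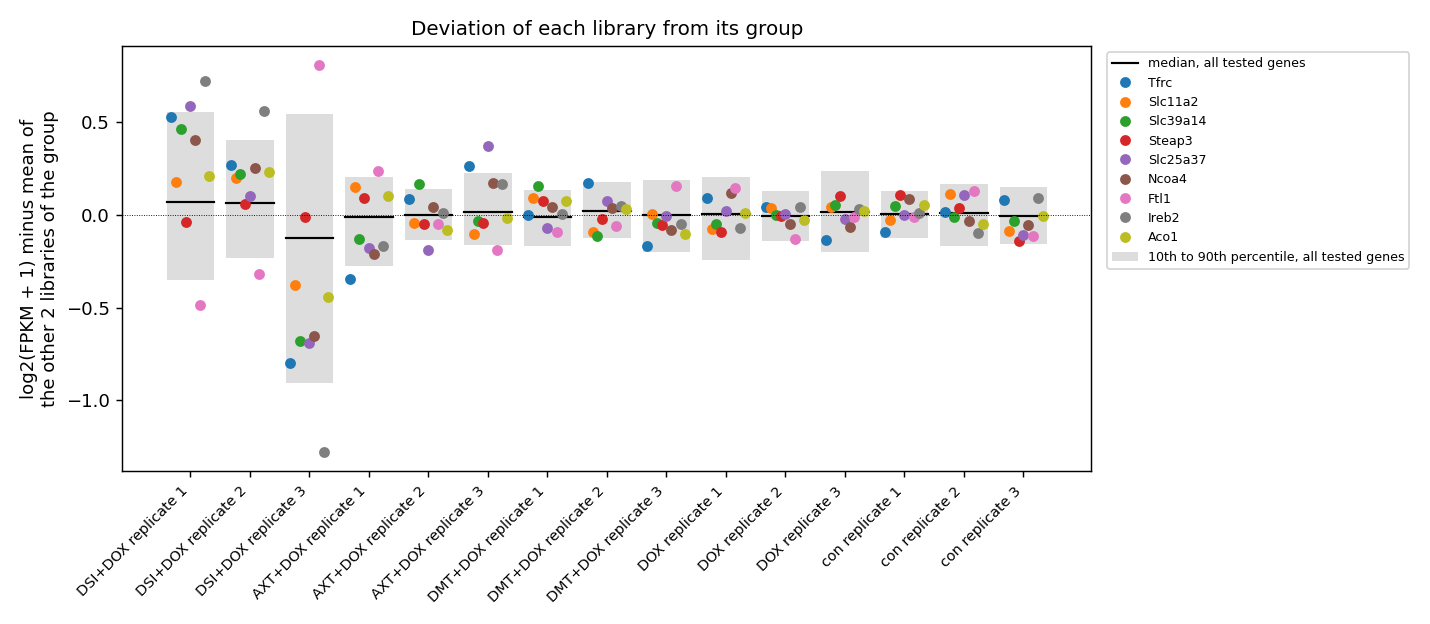
Log2(FPKM + 1) of each gene in each library minus the mean of the other 2 libraries of its group (y axis), with libraries along the x axis, from DSI+DOX to con. Grey boxes span the 10th to 90th percentile of all tested genes and black lines mark their median. The box of DSI+DOX replicate 3 runs from -0.91 to 0.54, with Ireb2 at -1.28 and Ftl1 at 0.81.

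Summed levels of some cell type markers also differed between these groups. The summed level of the 12 cardiomyocyte markers was 84.8 to 101.1 FPKM in DOX and 204.5 to 222 FPKM in con, nearly all of it Tnnt2. The 6 measured skeletal myoblast markers summed to 28.8 to 30.2 FPKM in DOX and 135 to 145 FPKM in con. Of these Myog ranged most over all libraries, from 2.19 to 98.4 FPKM, against 16.5 to 31.1 FPKM for Myod1. The 5 fibroblast markers summed to 2277 to 2692 FPKM in DOX and 4431 to 4627 FPKM in con, mostly Col1a1 and Col1a2. Thy1 lay at 139 to 177 FPKM, and Pdgfra and Dcn at no more than 0.048 FPKM in any library. The 4 measured erythroid markers summed to at most 1.42 FPKM in any library, and of the macrophage markers only Cd14, at 13.1 to 18.3 FPKM, exceeded 1 FPKM. The part of these shifts in the differences of the iron genes was not tested.

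Danshen injection, astaxanthin and diosmetin were each compared with doxorubicin alone, to ask what each addition changed in treated cells. Steap3, higher in DOX than in con, was the gene called. It fell to 37.2, 39.0 and 37.7 FPKM in DSI+DOX, against 43.8, 45.6 and 48.0 FPKM in DOX (-0.26 ± 0.06, limma adjusted p = 0.0201). In DMT+DOX it fell to 36.9, 35.2 and 34.7 FPKM (-0.35 ± 0.06, limma adjusted p = 0.00241). In AXT+DOX it had 40.8, 38.3 and 38.3 FPKM, and the difference of -0.22 ± 0.06 did not pass (limma adjusted p = 0.191). Leaving out DSI+DOX replicate 3 gave an adjusted p of 0.0435, with 1 of 9 genes called, against 3.3% of all genes. Every library with an addition lay below every DOX library and above every con library, whose highest value was 30.4 FPKM. Of all genes, 25.3% did not overlap between DSI+DOX and DOX, 17.6% between AXT+DOX and DOX and 38.6% between DMT+DOX and DOX. Against con these shares were 51.5%, 60.3% and 57% in the same order. All of these comparisons share the DOX libraries. Summed marker levels, each resting mostly on the few genes named above, differed here too. The skeletal myoblast markers summed to 39.9 to 41.1 FPKM in DSI+DOX, 24.5 to 29.0 FPKM in AXT+DOX and 48.3 to 49.8 FPKM in DMT+DOX, against 28.8 to 30.2 FPKM in DOX. The cardiomyocyte markers summed to 112 to 208 FPKM, 68.0 to 71.8 FPKM and 117 to 129 FPKM in the same order, against 84.8 to 101.1 FPKM in DOX. The fibroblast markers summed to 2233 to 2720 FPKM, 2482 to 2718 FPKM and 2954 to 3105 FPKM, against 2277 to 2692 FPKM in DOX, so that DMT+DOX stood above DOX for all 3 lists. Their part in the difference of Steap3 was not tested.

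For DSI+DOX against DOX, Steap3 was the 1 gene of 9 called, against 7.88% of all genes. The call was lost under median scaling (-0.11, limma adjusted p = 0.40), where the median of all genes was 0.04 rather than -0.11, and when only the DSI+DOX and DOX libraries were fitted (adjusted p = 0.357). It was also lost without DOX replicate 2 (adjusted p = 0.0739) or replicate 3 (0.0742). Ireb2 had 11.3, 10.5 and 3.90 FPKM in DSI+DOX and 9.54, 10.1 and 10.1 FPKM in DOX, so that 2 libraries lay above DOX and 1 far below it (-0.30 ± 0.25, limma adjusted p = 0.415). Leaving that library out turned the difference to 0.12 (adjusted p = 0.286). Tfrc had 8.49, 7.41 and 4.14 FPKM in DSI+DOX and 8.12, 7.92 and 7.20 FPKM in DOX, with overlapping groups (-0.23 ± 0.18, limma adjusted p = 0.387, and 0.03 without that library). Ftl1 had 5521, 5971 and 10034 FPKM in DSI+DOX and 6174, 5436 and 5754 FPKM in DOX (0.26 ± 0.18, limma adjusted p = 0.345, and -0.01 without it). Slc11a2, Slc39a14, Slc25a37, Ncoa4 and Aco1 differed by -0.30 to -0.05 with all libraries and by -0.07 to 0.09 without replicate 3. None of these 5 was called. Steap3 alone was called without replicate 3 too, against 11.8% of all genes.

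For AXT+DOX against DOX none of the 9 genes was called by limma, against 0.691% of all genes, and 1 of the 9 (Steap3) had an unadjusted p under 0.05. Ireb2 had 10.8, 11.8 and 12.8 FPKM in AXT+DOX and 9.54, 10.1 and 10.1 FPKM in DOX. The groups did not overlap, as for 17.6% of all genes, and the difference was 0.23 ± 0.25 (limma adjusted p = 0.974, or 0.0747 once DSI+DOX replicate 3 was left out). Tfrc had 6.69, 8.40 and 9.19 FPKM in AXT+DOX, with DOX inside that range, and a difference of 0.05 (95% interval -0.34 to 0.43). Ftl1 had 7142, 6256 and 5862 FPKM in AXT+DOX, above or among the DOX libraries (0.15, 95% interval -0.24 to 0.54). Neither interval excludes a moderate shift in either direction.

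For DMT+DOX against DOX, Steap3 was the 1 gene of 9 called, against 10.5% of all genes, and it was called under all 24 alternatives. Ireb2 had 12.05, 12.3 and 11.7 FPKM in DMT+DOX and 9.54, 10.1 and 10.1 FPKM in DOX, with all 3 libraries above DOX (0.26 ± 0.25, limma adjusted p = 0.625). Slc25a37 had 2.28, 2.51 and 2.38 FPKM in DMT+DOX and 3.28, 3.25 and 3.19 FPKM in DOX, with all 3 below DOX (-0.32 ± 0.17, limma adjusted p = 0.284). Both were called without DSI+DOX replicate 3 (adjusted p of 0.00956 for Ireb2 and 0.037 for Slc25a37), with 3 of 9 genes called then, against 25% of all genes. Tfrc had 6.37, 6.96 and 5.81 FPKM in DMT+DOX, below the lowest DOX library at 7.20 FPKM (-0.25 ± 0.18, limma adjusted p = 0.482). Slc39a14 differed by -0.18 ± 0.15 (adjusted p = 0.558). Ireb2, Tfrc, Slc39a14, Steap3 and Slc25a37 did not overlap between DMT+DOX and DOX, and 38.6% of all genes did not. Ncoa4, Aco1, Slc11a2 and Ftl1 differed by -0.07 to 0.05 with none called.

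**Figure D3:**
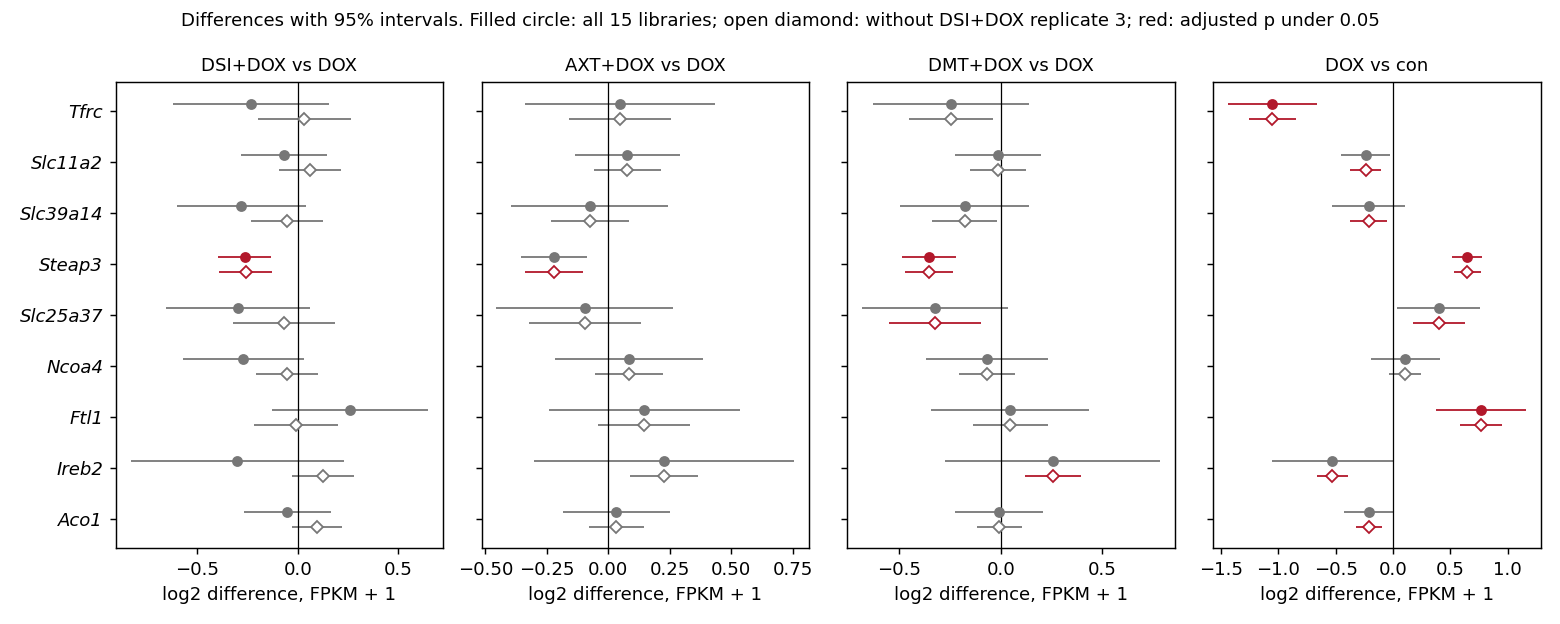
Log2 differences of the 9 genes on FPKM + 1 with 95% intervals (x axis, scaled per panel) for each addition against DOX and for DOX against con. Filled circles use all 15 libraries, open diamonds leave out DSI+DOX replicate 3, and red marks an adjusted p under 0.05. Steap3 lies at -0.26, -0.22 and -0.35 against DOX and at 0.65 in DOX against con.

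Each group with an addition was also set against con, and these 3 comparisons share the con libraries with the one of DOX. Tfrc differed by -1.28 in DSI+DOX (limma adjusted p = 0.000113), by -1.003 in AXT+DOX (0.000625) and by -1.30 in DMT+DOX (0.000116), each ± 0.18. Ftl1 averaged 7175 ± 2486 FPKM in DSI+DOX, 6420 ± 656 FPKM in AXT+DOX and 5981 ± 380 FPKM in DMT+DOX, against 3398 ± 191 FPKM in con, with differences of 1.03, 0.91 and 0.82 (adjusted p of 0.000704, 0.00135 and 0.00432 in that order). Steap3 differed by 0.38, 0.43 and 0.29 in the same order (0.000369, 0.000114 and 0.00316). Those 3 genes were the 3 of 9 called in AXT+DOX, against 35.5% of all genes, and in DMT+DOX, against 26.2%. In DSI+DOX 6 of 9 were called, against 41.8%, the other 3 being Ireb2 (-0.83, adjusted p = 0.0172), Slc39a14 (-0.49, 0.0187) and Slc11a2 (-0.30, 0.0265). Without DSI+DOX replicate 3 the difference was -0.40 for Ireb2 (adjusted p = 0.000516) and -0.27 for Slc39a14 (0.02), Slc25a37 was called at 0.33 (0.0376), and Slc11a2 was no longer called (-0.18, 0.0608). The calls without that library were 6 for DSI+DOX (3 higher and 3 lower), 9 for AXT+DOX (4 higher and 5 lower) and 7 for DMT+DOX (2 higher and 5 lower), against 40.6%, 53.6% and 45.1% of all genes.

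The additions were set against each other in 3 pairs. None of the 9 genes was called by limma in any pair, against 10.5% of all genes for DSI+DOX and AXT+DOX, 1.68% for DSI+DOX and DMT+DOX and 4.7% for AXT+DOX and DMT+DOX, and 1 gene per pair had an unadjusted p under 0.05. With the replicate number as a block, 42 rather than 190 of all genes were called between DSI+DOX and DMT+DOX, and again none of the 9. Those with an unadjusted p under 0.05 were Ncoa4 for DSI+DOX minus AXT+DOX (-0.35, 95% interval -0.66 to -0.05), Ireb2 for DSI+DOX minus DMT+DOX (-0.56, -1.09 to -0.03) and Steap3 for AXT+DOX minus DMT+DOX (0.13, 0.00 to 0.27). Without DSI+DOX replicate 3 the difference was -0.14 for Ncoa4 (95% interval -0.29 to 0.02) and -0.13 for Ireb2 (-0.29 to 0.02) in those pairs. The compounds were given at different doses, so these values stand side by side and rank no compound.

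Across the 15 libraries Tfrc and Ftl1 ran in opposite directions (Pearson's r = -0.95, and -0.94 without DSI+DOX replicate 3). Aco1 and Slc11a2 ran together (0.91, and 0.83 without it). For Ireb2 and Steap3 the value was -0.46 with that library and -0.93 without it. The points share their groups and their library scaling, so these are descriptions. The genes most like Tfrc in log2(FPKM + 1) over 15 libraries were Acsl1 (r = 0.98), Usp1 (0.98) and Kpnb1 (0.97). Those most like Ireb2 were Mbnl1, Bmpr1a and Ddx6 (0.99 each). Both sets of values include DSI+DOX replicate 3, where Ireb2 differed by -1.28 from the other DSI+DOX libraries, and are not given without it.

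The rest of the iron and haem pathway was described through 6 lists of 74 genes, of which 67 were in the table and 57 were tested. Between DOX and con 21 rose and 4 fell, beside 24.8% of all tested genes higher and 14.1% lower, with a median difference of 0.19, against 0.05 over all genes tested. The haem list had 8 higher and 1 lower of 16. Hmox1, the inducible enzyme that breaks down haem and frees its iron, averaged 118 FPKM in DOX and 45.2 FPKM in con (1.37 ± 0.06, limma adjusted p = 2.42e-09). Alas1, the first and rate-limiting enzyme of haem synthesis outside the erythroid lineage, averaged 15.995 FPKM in DOX and 8.20 FPKM in con (0.89 ± 0.07, 3.65e-07). Flvcr2, a transporter of the FLVCR family, differed by 0.88 (0.000266).

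The cytosolic iron-sulphur assembly list had 6 higher and none lower of 9, and the mitochondrial list 5 higher and 1 lower of 16. Over all tested genes 24.8% were higher and 14.1% lower, and the mitochondrial list was near the share of higher genes. Ndor1, a reductase that feeds electrons to cytosolic assembly, differed by 1.00 (limma adjusted p = 3.38e-06) and its partner Ciapin1 by 0.51 (8.45e-05). Hspa9, the mitochondrial chaperone of cluster transfer, differed by 0.96 (5.28e-05), and Nfu1, a late cluster carrier, by 0.83 (2.08e-05). Slc25a28, the mitoferrin of non-erythroid cells, averaged 17.8 FPKM in DOX and 13.0 FPKM in con (0.43, 0.0108), several times the level of Slc25a37.

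The list of other uptake genes had 2 higher and 1 lower of 9, near the shares of all tested genes (24.8% and 14.1%). Steap1, a relative of Steap3, differed by 0.26 (limma adjusted p = 0.0393), Slc39a8 (ZIP8), a close relative of Slc39a14, fell by 0.60 (0.000534), and the second transferrin receptor Tfr2 stood at 1.40 FPKM in DOX and 0.233 FPKM in con (0.95, 7.02e-06). Tfr2 averaged 0.938 FPKM in DSI+DOX, 0.923 FPKM in AXT+DOX and 0.830 FPKM in DMT+DOX. It passed the filter of 1 FPKM mostly through DOX, where it was highest, so its calls are only a description near the floor. The sensing list had none higher and 1 lower of 5, which was Skp1, a subunit of the ubiquitin ligase of Fbxl5. Fbxl5, the iron-sensing subunit of the ligase that degrades Ireb2, differed by 0.14 ± 0.08 (adjusted p = 0.193). None of the 2 tested export genes was called by limma, and none had an unadjusted p under 0.05. The ferritin heavy chain Fth1 and the exporter Slc40a1 are not analysed here. Without DSI+DOX replicate 3, 32 of the 57 genes were called higher and 8 lower, beside 57.1% of all genes called in either direction. By list, the higher and lower calls were then 12 and 3 for haem, 8 and 0 for cytosolic assembly, 7 and 1 for the mitochondrial list, 2 and 2 for other uptake and 2 and 2 for sensing. Of the export genes Heph, a ferroxidase that works with the exporter, was called then (0.15, adjusted p = 0.0372), and Fbxl5 was among the sensing genes called higher (0.14, adjusted p = 0.0218).

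**Figure D4:**
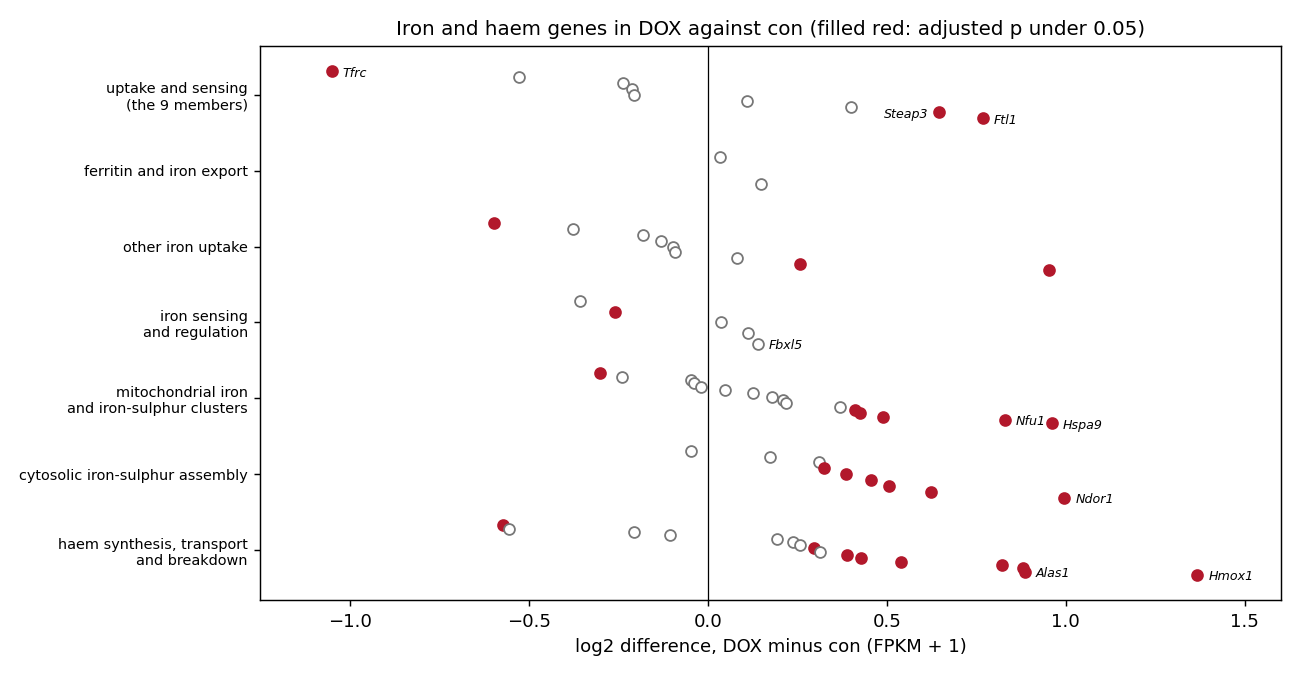
Log2 difference between DOX and con on FPKM + 1 (x axis) for the 9 members and the 6 other iron and haem lists (rows), 1 point per tested gene. Red points have an adjusted p under 0.05 and named points are among those described in the text. Hmox1 lies farthest to the right at 1.37 and Tfrc farthest to the left at -1.05.

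Few of these 57 genes were called in the comparisons of each addition with DOX. DSI+DOX had none higher and 6 lower than DOX, where 7.88% of all genes were called, and DMT+DOX none higher and 5 lower, where 10.5% were. In both comparisons most called genes of the whole table were lower, with 18.7% of the calls higher in DSI+DOX and 28.0% in DMT+DOX. With median scaling these shares were 58.5% and 53.0%, so the direction of the calls depended on the scaling. When only the DSI+DOX and DOX libraries were fitted, 1 of all 11288 genes was called, so at most 1 of the 6 held there. Hspa9 averaged 112 FPKM in DSI+DOX and 164 FPKM in DOX (-0.57, limma adjusted p = 0.0175). Hmox1 averaged 101.2 FPKM in DSI+DOX and 118 FPKM in DOX (-0.22, 0.0461), and Flvcr2 averaged 3.53 FPKM in DSI+DOX and 6.57 FPKM in DOX (-0.76, 0.00637). Ndor1, Alas1 and Pcbp2, an iron chaperone that loads ferritin, were lower in both groups. Against DOX their differences were -0.35, -0.27 and -0.23 in DSI+DOX (adjusted p of 0.0494, 0.0338 and 0.0233) and -0.42, -0.28 and -0.22 in DMT+DOX (0.0149, 0.0221 and 0.0208). Both comparisons share the DOX libraries. Ciapin1 (-0.27, 0.0271) and Tfr2 (-0.38, 0.0295) were also lower in DMT+DOX. For Tfr2 this is a description, since it passed the filter on low values mostly through DOX. AXT+DOX had no gene called of 57 by limma, beside 0.691% of all genes, and 6 had an unadjusted p under 0.05. Without DSI+DOX replicate 3, the counts were 1 higher and 6 lower for DSI+DOX, none higher and 2 lower for AXT+DOX, and 5 higher and 12 lower for DMT+DOX, beside 11.8%, 3.3% and 25% of all genes called.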

How the data were processed

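The labels' protocols give TRIzol extraction and an NEBNext Ultra library kit. The submitters' processing notes list Trimmomatic, HISAT2 and featureCounts, with Rnor_6.0 as the build and no versions. The authors deposited FPKM values, a column for each of the 15 libraries, and the step that made FPKM from counts is not given in the sources used here. Steps of whole reads could not be recovered (0.702% of 570 low genes shared the most common ratio between con replicates 1 and 2, in bins of 0.001 of the natural log ratio), so depth is unknown and no count model or counting interval was used. The strandedness of the counting is not given, so overlapping and antisense genes cannot be told apart.

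Of 19344 entries, 16 exact duplicates were removed. Genes with at least 1 FPKM in 3 or more of 15 libraries (11288) were fitted as log2(FPKM + 1), with a mean per group, with limma 3.58.1 (R 4.3.3), moderated by an intensity trend, on 10 residual degrees of freedom, two-sided, with p-values adjusted over all tested genes in each of 10 comparisons. The fit was checked on simulated data with independent noise of 1 spread per gene in all libraries. That check does not cover a deviating library such as DSI+DOX replicate 3. Likeness between genes is Pearson's r of log2(FPKM + 1). Promoter windows and synonyms are RefSeq's on GRCr8. Figures were drawn with matplotlib 3.10.9.

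The members, lists and markers were chosen with earlier results of these data known. All 9 members are named. Of the other lists, up to 6 called genes with the largest difference and at least 5 FPKM in the higher group were named for each main comparison, with Hmox1 and Fbxl5 always. Ciapin1 (against con), Slc25a28, Steap1, Slc39a8, Skp1, Heph and Tfr2 were named after their values were seen. Some genes of these lists are not reported here by name.

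Replicate numbers come from the titles, which do not say that a number marks a shared day or culture. Same-numbered libraries deviated together (r of 0.24, 0.34 and 0.52) between DSI+DOX and DMT+DOX and not in the other 9 comparisons, where at least 1 of 3 correlations was under 0.1. Alternatives were the pseudocount, the filter, scaling, the groups fitted, no intensity trend, library weights, a replicate block and each library left out.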

Additional observations from a re-analysis of the deposited data

How the results depend on the processing

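No alternative reversed a called difference. Over the 9 genes and 10 comparisons, 1314 of the values with 1 library left out kept their side of the threshold, 29 became called and 7 lost their call. Under the other alternatives these counts were 734, 61 and 5. The values that kept their side include uncalled differences that changed sign. An example is Ireb2 in DSI+DOX against DOX, at -0.30 with all libraries and 0.12 without DSI+DOX replicate 3. With median scaling the calls among the 9 genes were 6 each for DOX, AXT+DOX and DMT+DOX against con (2 higher and 4 lower each) and 0 for DSI+DOX against DOX. Of all 11288 genes, 4266, 3901, 2845 and 475 were called there, in the same order. With quantile normalization the calls among the 9 genes were 8 (3 higher and 5 lower), 6 and 6 against con for DOX, AXT+DOX and DMT+DOX, beside 4749, 4304 and 3239 of all genes. With only the compared groups fitted the calls among the 9 genes were 8, 7 and 7 against con in that order, 3 for DSI+DOX against con, 3 for DMT+DOX against DOX and 0 for DSI+DOX against DOX. With library weights, estimated gene by gene because the first method did not converge and chosen after seeing the data, they were 8, 9 and 7 against con for DOX, AXT+DOX and DMT+DOX, 2 and 4 against DOX for AXT+DOX and DMT+DOX, 1 between DSI+DOX and AXT+DOX and 2 between AXT+DOX and DMT+DOX. In DSI+DOX against con the weights added Aco1 (limma adjusted p = 0.0231) and Slc25a37 (0.0438), and the filter at 5 FPKM added Aco1 (0.0496). Other small changes of a count are not listed, here or in the next paragraph, which gives the larger changes in counts of all genes. With 1 library left out the calls ranged from 3 to 8 for DOX against con, 0 to 4 for DSI+DOX against DOX, 0 to 1 for AXT+DOX against DOX, 1 to 3 for DMT+DOX against DOX, 4 to 7, 3 to 9 and 3 to 7 for DSI+DOX, AXT+DOX and DMT+DOX against con, 0 to 2 between DSI+DOX and AXT+DOX and 0 to 1 between DSI+DOX and DMT+DOX. The highest values came without DSI+DOX replicate 3 or, for DSI+DOX, without its replicate 1. The cause was not tested.

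Of all genes, AXT+DOX against DOX called 78, against 41 with a pseudocount of 0.1, 44 with the filter at 5 FPKM and 162 without a filter. Median scaling gave 475 for DSI+DOX against DOX and 739 for DSI+DOX against AXT+DOX, and quantile normalization 297 for DSI+DOX against DMT+DOX. Fitting only the compared groups gave 1 for DSI+DOX and 2252 for DMT+DOX against DOX, 1613 and 5376 for them against con, 0 for DSI+DOX against AXT+DOX or DMT+DOX and 1222 for AXT+DOX against DMT+DOX. Library weights gave 7492, 7129 and 6078 against con for DOX, AXT+DOX and DMT+DOX, 3731, 1972 and 4201 against DOX for DSI+DOX, AXT+DOX and DMT+DOX, 4394 and 2273 for DSI+DOX against AXT+DOX and DMT+DOX, and 3165 for AXT+DOX against DMT+DOX. Blocking on the replicate number gave 569 for DSI+DOX and 31 for AXT+DOX against DOX, 735 for DSI+DOX against AXT+DOX and 42 for DSI+DOX against DMT+DOX, and changed no count among the 9 genes. With 1 library left out the range was 3496 to 6433 for DOX against con, 366 to 2531, 12 to 372 and 672 to 2821 against DOX and 3143 to 6291, 3198 to 6038 and 2151 to 5089 against con for DSI+DOX, AXT+DOX and DMT+DOX, 247 to 4049 and 26 to 2209 for DSI+DOX against AXT+DOX and DMT+DOX, and 271 to 1794 for AXT+DOX against DMT+DOX. The share of called genes that were higher in DOX than in con was 63.8%, against 49.6% with median scaling and 51.6% with quantile normalization, and for DSI+DOX against DOX it was 18.7%, against 58.5% and 46.6%. Depth is unknown and sets no stated limit here.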
